A study of Mus musculus with 3 samples.

Results

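A set of 8 genes was followed across the cells of the mouse retina at postnatal day 6. These were *Aqp1* (ENSMUSG00000004655), *Slco1a4* (ENSMUSG00000030237), *Ramp3* (ENSMUSG00000041046), *Acer2* (ENSMUSG00000038007), *Itih5* (ENSMUSG00000025780), *Six3* (ENSMUSG00000038805), *Six3os1* (ENSMUSG00000093460) and *Pid1* (ENSMUSG00000045658). These 8 of the 33696 genes in the deposited gene table were selected on the values described here. Their summed level in endothelial cells (ECs) was higher in both knockout libraries than in the wild-type library, or they led the ECs found in the knockout libraries. The endothelial differences between libraries are therefore given as a description, and the cells outside the endothelium were not used in the choice. Each gene had 1 entry in the table.

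The 3 libraries held retinal cells enriched with magnetic beads against CD31 and CD11b, which select endothelium and microglia. The WT library came from wild-type mice, the *Tspan12* KO library from mice lacking *Tspan12* in all cells, and the *Ctnnb1* cKO library from mice with floxed *Ctnnb1* and the tamoxifen-inducible *Pdgfb*-iCreERT driver, which is active in endothelium. The strain background was C57BL/6 throughout. Each library pooled retinas of several mice of 1 genotype, and WT and knockout mice came from separate litters. Tamoxifen was given to the *Ctnnb1* cKO mice on the first days after birth. With 1 library per genotype, genotype and library cannot be told apart and no test between genotypes was possible. Each ratio carries a 95% interval that covers counting error only.

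TSPAN12 is a membrane protein that strengthens the signal of the ligand Norrin through its receptor Frizzled-4, and beta-catenin, the product of *Ctnnb1*, carries that signal to the nucleus. In the retina this pathway drives the growth of the vessels and the formation of the blood-retina barrier. The 8 genes belong to different families. AQP1 is a water channel, SLCO1A4 an organic anion transporter of brain capillaries, and RAMP3 a partner that turns the calcitonin receptor-like receptor into a receptor for adrenomedullin. ACER2 is a ceramidase that releases sphingosine, ITIH5 a hyaluronan-binding protein of the extracellular matrix, and PID1 an adaptor that binds the tail of the lipoprotein receptor LRP1. SIX3 is a homeobox transcription factor needed for the formation of the eye and forebrain. *Six3os1* is a long non-coding RNA transcribed from the neighbouring start in the opposite direction.

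*Six3* and *Six3os1* are neighbours, and their levels moved together in the endothelium, so the stretches around both starts are shown first. The windows of *Aqp1*, whose level followed the pair most closely among the other 6 genes, and of *Ramp3*, which took another course, are shown beside them. Each sequence is 300 bases long, from 250 bases before to 50 bases after the start of the gene, read 5′ to 3′ on the strand of the gene from RefSeq on build GRCm38.p6. Capitals mark matches to the letters GAAANNGAA, the core of the element that interferon regulatory factors bind, of which the *Aqp1* and *Ramp3* windows hold none. The *Six3* window lies at chr17:85620584-85620883 on the plus strand, the *Six3os1* window at chr17:85618347-85618646 on the minus strand, the *Aqp1* window at chr6:55336049-55336348 on the plus strand and the *Ramp3* window at chr11:6658283-6658582 on the plus strand. The starts of *Six3* and *Six3os1* lie 2438 bases apart.
Six3: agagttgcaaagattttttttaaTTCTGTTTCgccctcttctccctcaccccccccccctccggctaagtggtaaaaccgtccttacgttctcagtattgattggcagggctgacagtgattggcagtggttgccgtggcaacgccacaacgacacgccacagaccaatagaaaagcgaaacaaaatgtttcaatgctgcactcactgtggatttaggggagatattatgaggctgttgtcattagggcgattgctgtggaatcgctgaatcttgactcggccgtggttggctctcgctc
Six3os1: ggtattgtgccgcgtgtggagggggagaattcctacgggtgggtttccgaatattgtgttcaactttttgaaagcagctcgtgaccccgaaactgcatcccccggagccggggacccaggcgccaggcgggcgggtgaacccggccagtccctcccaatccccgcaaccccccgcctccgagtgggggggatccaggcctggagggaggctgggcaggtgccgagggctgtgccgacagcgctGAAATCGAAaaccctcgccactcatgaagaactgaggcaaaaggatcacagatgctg
Aqp1: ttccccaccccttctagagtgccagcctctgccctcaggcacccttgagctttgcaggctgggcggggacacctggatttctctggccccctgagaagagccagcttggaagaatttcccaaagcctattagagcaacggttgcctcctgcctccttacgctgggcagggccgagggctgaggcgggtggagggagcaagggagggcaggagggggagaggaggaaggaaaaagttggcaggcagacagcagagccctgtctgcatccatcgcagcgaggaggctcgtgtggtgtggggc
Ramp3: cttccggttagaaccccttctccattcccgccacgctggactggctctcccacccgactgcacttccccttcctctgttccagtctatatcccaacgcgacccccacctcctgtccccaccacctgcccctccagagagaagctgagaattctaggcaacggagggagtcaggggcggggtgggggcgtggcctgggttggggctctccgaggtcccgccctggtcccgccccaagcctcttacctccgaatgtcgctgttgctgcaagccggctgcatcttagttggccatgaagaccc

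The windows of all 8 genes were found in the RefSeq table and were searched on both strands for 4 motifs. CTTTGAT and CTTTGTT are letters bound by the TCF and LEF factors that beta-catenin works through, and TATAAA is the TATA box. Of the 32851 promoter windows in the table, 3.73% held CTTTGAT, 5.85% CTTTGTT, 8.56% GAAANNGAA and 13.6% TATAAA. Among the 8 genes, 2 windows held a match, both to GAAANNGAA. In *Six3* the reverse complement lay at positions -227 to -219 from the start, and in *Six3os1* the match lay at -7 to 2, across the start. No match overlapped another, and a match describes letters only. Because the build behind the deposited counts could not be settled (the submitters' notes name GRCm39 and the methods mm10), the coordinates above belong to the RefSeq windows alone.

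After filtering, 8989 WT, 12732 *Tspan12* KO and 8451 *Ctnnb1* cKO cells were kept, from totals of 92684519, 137114957 and 37008362 unique molecular identifiers (UMIs, each marking 1 captured transcript). ECs, found as clusters led by endothelial markers, numbered 538, 290 and 2714, with median UMIs of 15785, 14486 and 3353 per cell. All 10 endothelial markers were detected in the ECs of each library. Levels are given as CPM, the UMIs of a gene in each 1000000 UMIs of the summed cells. The median log2 ratio over all genes in ECs was 0.01 in *Tspan12* KO and -0.12 in *Ctnnb1* cKO, so ratios in the latter are read against that shift. *Plvap*, a protein of leaky, fenestrated vessels, was above WT in the ECs of both libraries, with log2 ratios of 1.62 and 1.39. *Cldn5*, a tight junction gene of the barrier, was below WT at -0.78 and -1.13. *Tspan12* stood at 95.9, 83.9 and 40.2 CPM in ECs, so its level was lower in *Ctnnb1* cKO (log2 ratio -1.25) than in the library labelled *Tspan12* KO (-0.19). *Ctnnb1* stood at 523, 615 and 443 CPM, with ratios of 0.23 and -0.24. Whether the targeted genes keep the 3′ ends that are counted was not tested, so these levels do not check the labels. The paper reports efficient deletion in both mouse lines, from mRNA levels in lung. Haemoglobin and other erythroid markers summed to 3110 CPM in *Tspan12* KO ECs against 169 in WT and 255 in *Ctnnb1* cKO ECs. Between 21 and 37 barcodes were shared by any pair of libraries, at most 0.393% of the smaller one.

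All 8 genes were at least 2-fold above WT in the ECs of both knockout libraries, as the choice of the genes fixes. Of all genes with at least 50 endothelial UMIs, 2.59% were that far above WT in *Tspan12* KO, 8.53% in *Ctnnb1* cKO and 1.32% in both libraries. When 13230 genes were ordered by the smaller of their 2 log2 ratios, with 5 CPM added to each library, the first 7 places were held by *Six3os1*, *Aqp1*, *Six3*, *Slco1a4*, *Ramp3*, *Acer2* and *Itih5*. The haemoglobin gene *Hba-a1* came next, at 32.8 CPM in WT against 410 and 125 in the knockout libraries, and *Pid1* held place 22. Where 3 values follow each other below, they are for WT, *Tspan12* KO and *Ctnnb1* cKO in that order.

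The transport genes *Aqp1* and *Slco1a4* had few UMIs in WT endothelium, 64 and 68. *Aqp1* stood at 3.98 CPM in WT (3.06 to 5.08), 85.0 in *Tspan12* KO (78.0 to 92.4) and 208 in *Ctnnb1* cKO (201 to 216). The 3 intervals did not overlap, and *Ctnnb1* cKO was the highest. The log2 ratios to WT were 4.42 (4.04 to 4.81) and 5.71 (5.35 to 6.09). *Slco1a4* stood at 4.23 CPM in WT (3.28 to 5.36), 47.3 in *Tspan12* KO (42.1 to 52.9) and 43.6 in *Ctnnb1* cKO (40.1 to 47.4). Here the knockout libraries overlapped each other and lay above WT, with log2 ratios of 3.48 (3.10 to 3.89) and 3.37 (3.0 to 3.75).

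The receptor partner *Ramp3* followed the same order as *Slco1a4* at the level of all ECs. It stood at 6.34 CPM in WT (5.17 to 7.69), 38.8 in *Tspan12* KO (34.1 to 44.0) and 35.1 in *Ctnnb1* cKO (31.9 to 38.5). The knockout libraries again overlapped each other, with log2 ratios of 2.61 (2.28 to 2.96) and 2.47 (2.16 to 2.79).

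The ceramidase *Acer2* was already present in WT endothelium, on 419 UMIs. It stood at 26.0 CPM in WT (23.6 to 28.7), 104 in *Tspan12* KO (96.0 to 112) and 227 in *Ctnnb1* cKO (218 to 235). The libraries did not overlap, and the log2 ratios were 1.99 (1.82 to 2.17) and 3.12 (2.97 to 3.27).

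The matrix gene *Itih5* and the adaptor *Pid1* were higher in *Tspan12* KO than in *Ctnnb1* cKO. *Itih5* stood at 10.6 CPM in WT (9.04 to 12.3), 76.2 in *Tspan12* KO (69.6 to 83.3) and 49.5 in *Ctnnb1* cKO (45.8 to 53.5). *Pid1* stood at 16.7 CPM in WT (14.8 to 18.8), 72.0 in *Tspan12* KO (65.6 to 78.9) and 43.6 in *Ctnnb1* cKO (40.1 to 47.4). For both genes the 3 intervals were apart. The log2 ratios of *Itih5* were 2.85 (2.60 to 3.11) and 2.23 (1.98 to 2.48). Those of *Pid1*, the smallest of the 8 in *Ctnnb1* cKO, were 2.11 (1.89 to 2.33) and 1.38 (1.17 to 1.60).

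Both genes of the *Six3* locus were higher in each knockout library. *Six3* stood at 9.94 CPM in WT ECs (8.46 to 11.6), 113 in *Tspan12* KO (105 to 121) and 330 in *Ctnnb1* cKO (321 to 341). *Six3os1* stood at 8.27 CPM in WT ECs (6.92 to 9.80), 172 in *Tspan12* KO (162 to 183) and 217 in *Ctnnb1* cKO (209 to 225). Neither gene overlapped between any 2 libraries. The log2 ratios were 3.50 (3.26 to 3.76) and 5.05 (4.83 to 5.29) for *Six3*, and 4.38 (4.12 to 4.65) and 4.71 (4.46 to 4.98) for *Six3os1*. The sources used here do not state whether the counting used strand, so reads of genes on opposite strands may not be separated where they overlap.

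**Figure D1:**
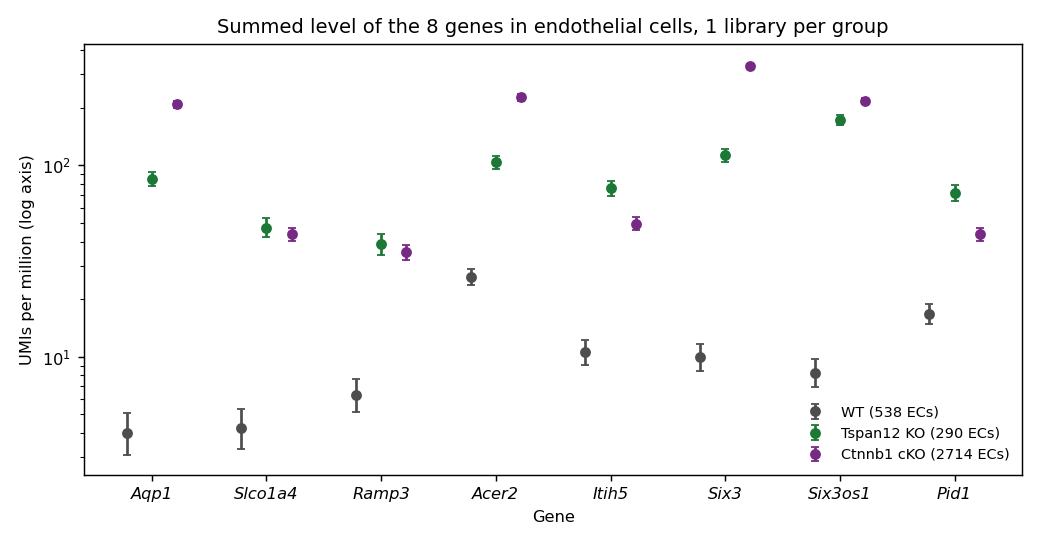
Summed level of each gene in the endothelial cells of 3 libraries, in CPM on a log axis; points are library sums and bars are 95% Poisson intervals that cover counting error only. The WT point is the lowest of the 3 for each gene, from 3.98 for *Aqp1* to 26.0 for *Acer2*.

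Depth differed between the libraries, so the share of ECs with at least 1 UMI was compared after each cell was thinned to 2000 UMIs, which left out 18, 29 and 825 cells. *Six3* was then found in 2.31% of WT ECs (1.20 to 4.0%), 16.9% of *Tspan12* KO ECs (12.5 to 22.0%) and 36.2% of *Ctnnb1* cKO ECs (34.0 to 38.4%). *Aqp1* was found in 0.962%, 10.7% and 22.6%, and *Ramp3* in 0.962%, 4.60% and 6.51%. For all 8 genes, which were chosen on these cells, both knockout shares had intervals above that of WT. The part of all genes with such intervals was not counted. Without thinning, where WT ECs are the deepest, *Six3* was found in 19.5%, 36.9% and 43.6% of the ECs and *Aqp1* in 3.72%, 25.9% and 31.4%. Unthinned *Ramp3*, at 12.5%, 30.3% and 11.7%, *Itih5*, at 16.5%, 32.8% and 14.6%, and *Pid1*, at 17.1%, 30% and 12.6%, were not above WT in *Ctnnb1* cKO, where cells are shallow, against the order of their CPM. In rod-like cells, which should lack *Aqp1* and *Slco1a4*, the thinned share of *Aqp1* was 0.111%, 0.264% and 1.92%, at median depths of 5103, 5773 and 4033 UMIs among the cells kept. The EC medians in the same order were 16619, 18255 and 4600 UMIs. The highest share of *Slco1a4* in rod-like cells was 0.590%, in *Ctnnb1* cKO, against 6.51% in the ECs of that library.

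Single ECs carried several of the genes in the knockout libraries. At 2000 UMIs, none of the 8 was detected in 83.7%, 55.2% and 36.4% of the ECs. At least 4 were detected in 0.192%, 8.81% and 10.6%. For every pair of the genes other than *Ramp3*, in both knockout libraries, 1 gene was found in a larger share of the ECs with the other than of those without it. Of the 20 *Tspan12* KO ECs with *Slco1a4*, 75.0% also had *Six3os1*, against 16.2% of the 241 without it. In *Ctnnb1* cKO, *Six3os1* was found in 48.2% of the 684 ECs with *Six3* and in 13.5% of the 1205 without it, and *Six3* in 64.4% of the 427 ECs with *Aqp1* and in 28.0% of the others. For *Ramp3* the pairs were mixed. In *Ctnnb1* cKO, *Slco1a4* was found in 2.44% of the 123 ECs with *Ramp3* and in 6.80% of the 1766 without it, and *Pid1*, *Itih5* and *Six3os1* were also less frequent with *Ramp3*. *Acer2* (39.0% against 30%), *Six3* (40.7% against 35.9%) and *Aqp1* (26.0% against 22.4%) were more frequent with it. Cells of 1 library are not replicates, and these shares describe the libraries. Choosing genes in part because they led ECs of the knockout libraries favours such pairing. Pairs of other genes were not counted.

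To place the genes among endothelial subtypes, the ECs were clustered again with the 8 genes kept out of the variable genes, which gave 10 subclusters. Most took nearly all of their cells from 1 library, and for these a subtype and a library difference cannot be told apart. WT ECs lay in subcluster 3 (capillary-barrier-like, 304 cells), subcluster 7 (proliferative-like, 172 cells) and subcluster 9 (unnamed and led by photoreceptor and haemoglobin genes, 62 cells). *Tspan12* KO shared those, with 71, 102 and 51 cells, and held the unnamed subcluster 10 with 62 cells. *Ctnnb1* cKO ECs lay in subclusters 1 (tip-like, 761 cells), 2 (unnamed, 757), 4 (unnamed, with venous markers, 346), 5 (proliferative-like, 322), 6 (arterial-like, 281) and 8 (fenestrated-like, 210). For each of the 8 genes the highest level over the 13 combinations of subcluster and library with at least 30 cells was in a knockout library. The choice of the genes largely fixes this, and most of those combinations belong to knockout libraries.

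In *Tspan12* KO, 7 of the 8 genes were held mainly by subcluster 10, which made up 21.4% of the ECs and 1696820 of their 6389454 UMIs. Since genes were chosen in part for leading ECs of the knockout libraries, this concentration is a description. How many of all genes were held mainly there was not counted. *Slco1a4* was the most concentrated, with 285 of its 302 endothelial UMIs there, followed by *Six3os1* with 1017 of 1101. *Six3* had 632 of 721 there, *Aqp1* 464 of 543, *Pid1* 387 of 460, *Acer2* 548 of 663 and *Itih5* 376 of 487. *Ramp3* was the exception, with 52 of 248 UMIs in subcluster 10 and 157 in the proliferative-like subcluster 7. In subcluster 10 *Six3* reached 372 CPM (344 to 403), *Six3os1* 599 CPM (563 to 637) and *Aqp1* 273 CPM (249 to 300). The 10 leading genes of subcluster 10 included *Nkd1*, *Apcdd1* and *Tnfrsf19*, targets of beta-catenin, the haemoglobin genes *Hbb-bs* and *Hbb-bt*, and *Pid1*, *Itih5* and *Slco1a4*. Its cells were endothelial by their markers, with all 10 detected and a summed level of 10669 CPM. The erythroid markers summed to 2334 CPM in subcluster 10 and to 2380 CPM in the *Tspan12* KO cells of subcluster 7, where the 8 genes other than *Ramp3* were low. In a setting added after the data were seen, ECs with any UMI of photoreceptor, bipolar, amacrine or erythroid markers after thinning to 2000 UMIs were left out. Then 244, 88 and 885 ECs remained, and all 8 genes, chosen for this difference, were at least 2-fold above WT in both knockout libraries, as were 1.58% of all genes in those cells.

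**Figure D2:**
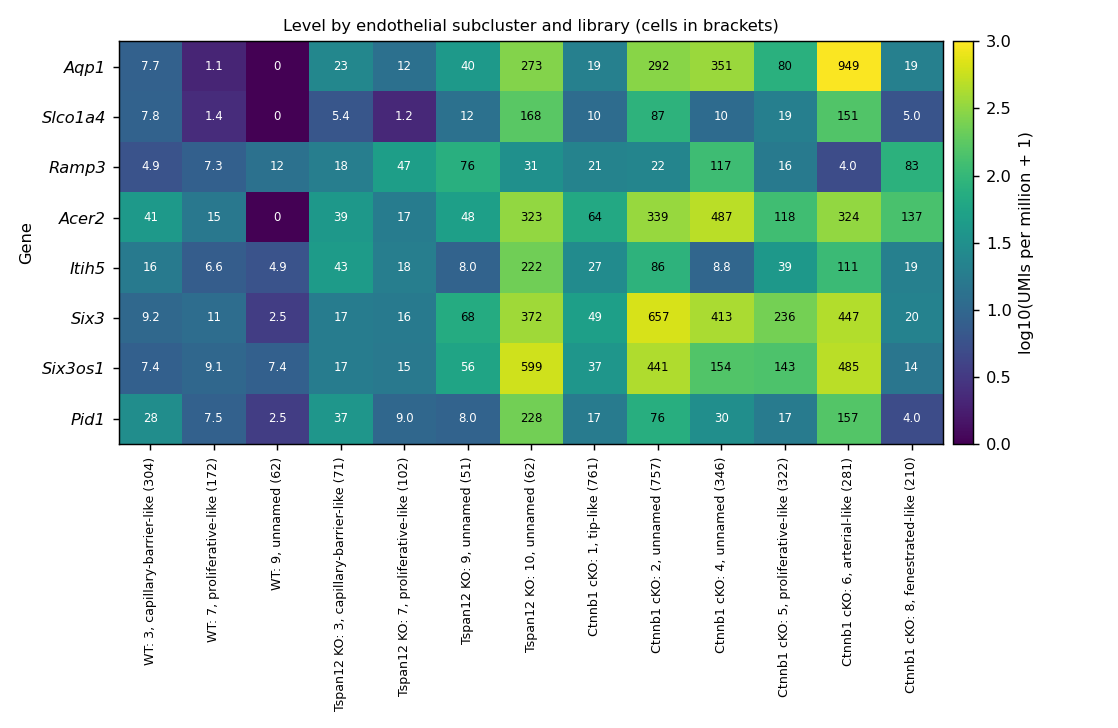
Level of each gene (rows) in the endothelial subclusters of each library with at least 30 cells (columns), coloured by log10 of CPM plus 1, with the CPM printed; rows are to be read along, since levels of different genes are not comparable. In *Tspan12* KO, 7 of the genes are high in subcluster 10, and *Ramp3* is higher in subclusters 7 and 9.

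Outside subcluster 10 the genes fell into separate groups. Within subcluster 3, which WT and *Tspan12* KO share, *Aqp1* stood at 7.65 and 23.5 CPM, a log2 ratio of 1.62 (0.89 to 2.32), *Ramp3* at 4.87 and 18.1 CPM, 1.89 (1.02 to 2.72), and *Itih5* at 15.6 and 43.4 CPM, 1.48 (0.96 to 1.98). In the same cells *Slco1a4* stood at 7.79 and 5.42 CPM, -0.52 (-2.03 to 0.69), *Acer2* at 40.9 and 38.8 CPM, -0.07 (-0.57 to 0.39), and *Pid1* at 28.4 and 37.0 CPM, 0.38 (-0.14 to 0.87). The intervals of these 3 ratios included 0. Within the proliferative-like subcluster 7 the division was the same. *Aqp1* stood at 1.06 and 11.7 CPM, 3.47 (2.40 to 4.70), *Ramp3* at 7.30 and 47.2 CPM, 2.69 (2.26 to 3.14), and *Itih5* at 6.59 and 18.3 CPM, 1.48 (0.93 to 2.03), while the ratios of *Slco1a4*, *Acer2* and *Pid1* again had intervals that included 0. *Six3* and *Six3os1* lay between, at 0.90 (0.08 to 1.66) and 1.22 (0.38 to 2.0) in subcluster 3 and at 0.51 (-0.00 to 1.02) and 0.76 (0.22 to 1.29) in subcluster 7, at levels between 15.3 and 17.2 CPM in *Tspan12* KO. The level of *Six3* that free RNA would give in *Tspan12* KO ECs, scaled from rod markers, was 13.7 CPM, and that of *Six3os1* 10.1 CPM. With subcluster 10 left out, a setting also added after the data were seen, 4 of the 8 genes were at least 2-fold above WT in *Tspan12* KO ECs, as were 2.19% of all genes. These were *Ramp3* (log2 ratio 2.72), *Aqp1* (2.08), *Itih5* (1.16) and *Six3os1* (1.11), whereas *Slco1a4*, *Pid1* and *Acer2* stood at -0.22, -0.10 and -0.09.

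**Figure D3:**
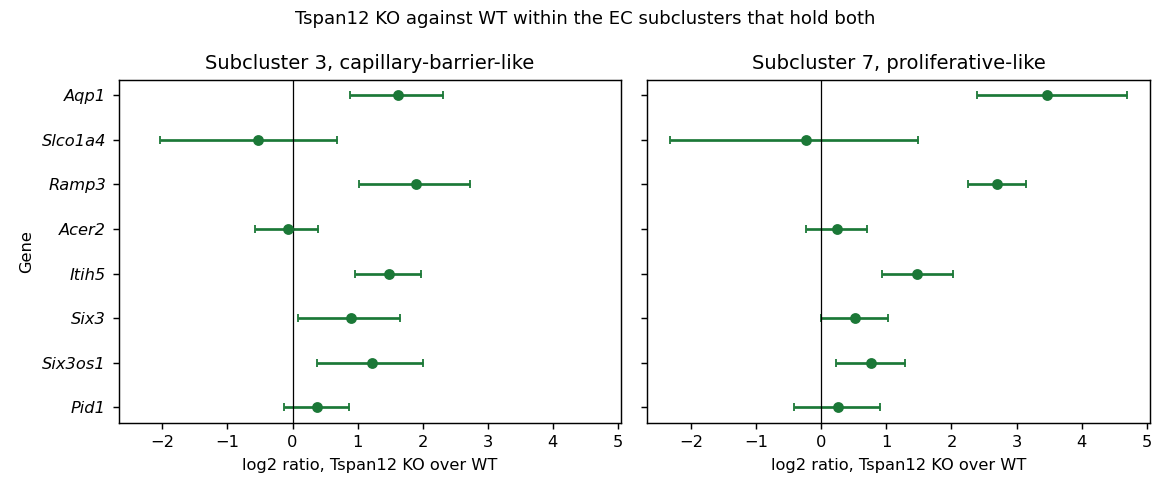
Log2 ratio of the *Tspan12* KO to the WT level within the 2 endothelial subclusters that hold both libraries; points are ratios of summed CPM, and bars are 95% intervals that cover counting error only. *Aqp1*, *Ramp3* and *Itih5* lie right of 0 in both panels, and the intervals of *Slco1a4*, *Acer2* and *Pid1* include 0 in both.

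In *Ctnnb1* cKO the genes differed by subtype in another way. *Aqp1* was highest in the arterial-like subcluster 6 at 949 CPM (881 to 1021) and stood at 19.2 CPM in the tip-like subcluster 1. *Slco1a4*, *Pid1*, *Itih5* and *Six3os1* also had their highest *Ctnnb1* cKO level there, at 151, 157, 111 and 485 CPM. Among *Ctnnb1* cKO cells *Six3* was highest in subcluster 2 at 657 CPM (632 to 684), with 447 in subcluster 6, 413 in subcluster 4 and 20.2 in the fenestrated-like subcluster 8. The cells of subcluster 2 were led by *Six3* and *Six3os1* and by the interferon-induced genes *Zbp1* and *Iigp1*. *Acer2* was highest in subcluster 4 at 487 CPM and remained at 137 CPM in subcluster 8. *Ramp3* took another course, with 117 CPM in subcluster 4, 82.6 in subcluster 8 and 3.97 in the arterial-like subcluster 6, where *Aqp1* peaked. The tip-like subcluster 1 held 28.0% of the *Ctnnb1* cKO ECs and 2.27% of their *Aqp1* UMIs. In the proliferative-like subcluster 5, *Six3* stood at 236 CPM and *Aqp1* at 79.9 CPM. Retinal neurons also express *Six3*, so their markers were summed in the same cells. The amacrine markers summed to 16.9 CPM in subcluster 2 and to 159 CPM over all cells of that library, and the bipolar markers to 15.3 and 167 CPM. The lists of Muller glia and retinal progenitor markers hold genes that ECs also express. Their sums in subcluster 2 were 765 and 494 CPM, against 781 and 472 CPM in all *Ctnnb1* cKO ECs. The neurogenic precursor and ganglion cell markers were not low, at 500 and 329 CPM in subcluster 2 against 457 and 347 CPM in all *Ctnnb1* cKO ECs.

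Subtypes were also compared by gates on the arterial, venous and tip markers, at 3 or more UMIs in cells thinned to 2000, a cut chosen after the data were seen. These gates hold cells of each library, at 69, 36 and 293 arterial-gated cells in WT, *Tspan12* KO and *Ctnnb1* cKO. In WT, *Aqp1* lay mostly in arterial-gated cells, with 52 of its 64 endothelial UMIs there at 24.9 CPM, against 1.09 CPM in tip-gated cells. *Slco1a4* in WT had 42 of its 68 UMIs in arterial-gated cells, at 20.1 CPM. *Acer2* and *Pid1* were also above their WT endothelial levels there, at 65.2 and 51.3 CPM, but *Six3* was not, at 10.1 CPM. In the knockout libraries arterial-gated *Aqp1* stood at 285 and 680 CPM, and tip-gated *Aqp1* at 17.7 and 82.6 CPM. *Six3* stood at 176 and 443 CPM in arterial-gated, and at 33.8 and 156 CPM in tip-gated, knockout ECs. Of the 3 gates, the arterial one had the lowest *Ramp3* in each library, at 5.27, 11 and 16.2 CPM, against 9.11, 46.1 and 37.8 CPM in tip-gated cells. The arterial-gated values rest on 11 UMIs in WT and 6 in *Tspan12* KO. In WT the arterial-gated interval (2.63 to 9.43) overlapped those of the venous-gated and tip-gated cells, so the WT order is not resolved. Among ECs not called cycling, all 8 genes, chosen for this difference, were at least 2-fold above WT in both knockout libraries, as were 1.51% of all genes. When 1 UMI of a cycling gene was enough for the call, 7 were so, beside 1.70% of all genes, and *Pid1* stood at 0.87 (0.58 to 1.17) in *Ctnnb1* cKO. In cells called cycling, *Aqp1* stood at 1.21, 31.6 and 103 CPM and *Six3* at 10.9, 69.9 and 236 CPM.

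The cells outside the endothelium, which played no part in the choice of the genes, divided them again. *Six3* and *Six3os1* were expressed by retinal neurons and progenitors in each library. Over all non-endothelial cells *Six3* stood at 258, 216 and 252 CPM, and *Six3os1* at 116, 153 and 94.4 CPM. *Six3* was highest in retinal progenitor-like cells, at 494, 434 and 647 CPM, and in amacrine-like cells, at 447, 387 and 638 CPM. In WT rod-like cells it stood at 124 CPM, and in microglia-like cells, which are of blood-cell origin, at 14.1 CPM. The interval of the WT endothelial level, 9.94 CPM, overlapped that of the microglia-like cells. The free RNA of the library, scaled from rod markers, would give 11.9 CPM of *Six3* in WT ECs, against 9.94 measured. In *Ctnnb1* cKO it would give 23.6 CPM against 330 measured. The part of free RNA in these levels was not tested.

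Of all genes with at least 50 non-endothelial UMIs, 1.03% of the *Tspan12* KO ratios and 14.1% of the *Ctnnb1* cKO ratios were at least 2-fold above WT. Of the 8 genes, 2 of 8 were so in *Tspan12* KO, *Aqp1* and *Slco1a4*, and 3 of 8 in *Ctnnb1* cKO, the same pair and *Itih5*. All 3 were scarce there. *Aqp1* stood at 0.434, 1.81 and 12.4 CPM. Its log2 ratios were 2.06 (1.46 to 2.71) and 4.84 (4.25 to 5.48). *Slco1a4* stood at 0.0501, 0.666 and 2.05 CPM, where the WT value rests on 3 UMIs, and *Itih5* at 1.49, 2.14 and 5.17 CPM. With 5 CPM added to each library, none of the 8 passed in *Tspan12* KO, beside 0.107% of all genes, and 1 passed in *Ctnnb1* cKO, beside 7.23%. The *Aqp1* level in *Ctnnb1* cKO was low in unrelated cells, at 10.4 CPM in rod-like, 10.4 in microglia-like and 8.44 in amacrine-like cells and 20 (12.1 to 31.3) in macrophage-like cells, beside 7.51 CPM that free RNA, scaled from rod markers, would give in the ECs of that library. The part of free RNA in these levels was not tested. RPE-like cells (retinal pigment epithelium) held 31.9 and 27.8 CPM in the knockout libraries, on 20 and 12 UMIs. Only 2 RPE-like cells were found in WT, so no ratio is given.

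The other genes moved less outside the endothelium. *Ramp3* was 0.73 (0.52 to 0.93) above WT in *Tspan12* KO and at -0.04 (-0.40 to 0.31) in *Ctnnb1* cKO on the log2 scale, *Acer2* at -0.11 (-0.28 to 0.05) and 0.78 (0.56 to 1.0), *Six3* at -0.26 (-0.29 to -0.23) and -0.04 (-0.09 to 0.01), *Six3os1* at 0.40 (0.36 to 0.44) and -0.29 (-0.37 to -0.22), and *Pid1* at 0.04 (-0.02 to 0.10) and -0.23 (-0.34 to -0.13). The median ratio over all non-endothelial genes was -0.10 in *Tspan12* KO and -0.35 in *Ctnnb1* cKO. Scaling by TMM, which estimates library factors from the bulk of the genes, shifts the *Ctnnb1* cKO ratios up by 0.38 and turns *Six3os1* to 0.08 and *Pid1* to 0.14.

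**Figure D4:**
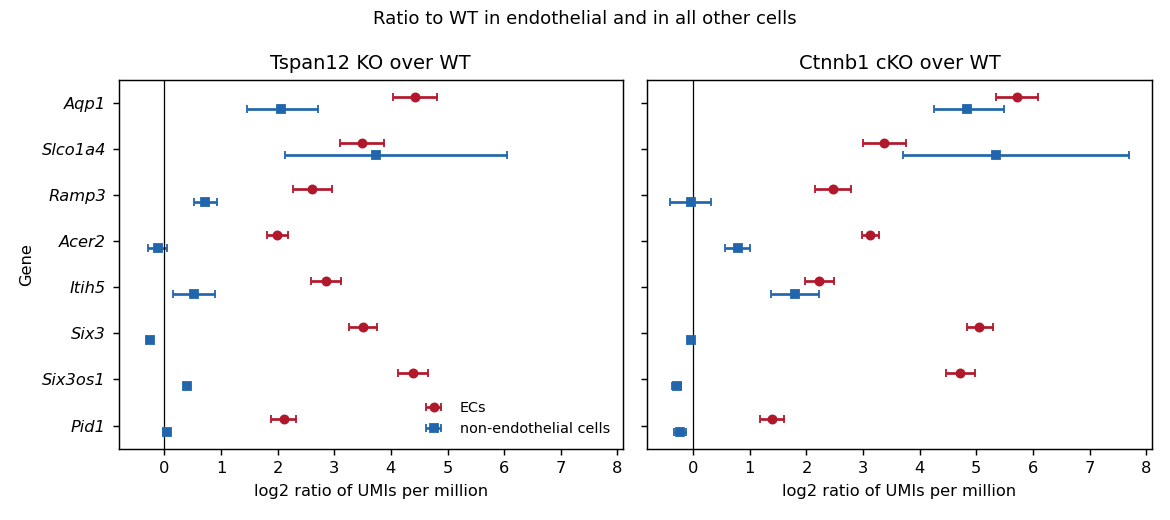
Log2 ratio of each knockout library to WT in endothelial cells (circles) and in all other cells (squares); bars are 95% intervals that cover counting error only. *Six3*, *Six3os1* and *Pid1* lie between -0.29 and 0.40 outside the endothelium and between 1.38 and 5.05 within it, and the wide squares of *Slco1a4* rest on 3 WT UMIs.

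Single classes showed shifts that the pooled cells hide, but WT and *Ctnnb1* cKO fill some classes from different clusters. Of the rod-like cells, 1015 of 1048 in WT lay in 1 cluster and 1668 of 1695 in *Ctnnb1* cKO in another. Of the microglia-like cells, 1 cluster held 1817 of 2123 in *Ctnnb1* cKO and 14 of 287 in WT. For these classes a shift within the class and a difference between clusters cannot be told apart. In rod-like cells of *Ctnnb1* cKO, *Six3* stood at 377 CPM against 124 in WT, a log2 ratio of 1.60 (1.49 to 1.71), and *Six3os1* at 120 against 38.3 CPM, 1.64 (1.45 to 1.84). In *Tspan12* KO rod-like cells the ratios were -0.14 (-0.25 to -0.02) and 0.48 (0.29 to 0.67). *Pid1* was a gene of amacrine-like cells, at 251, 247 and 117 CPM, and of myeloid cells, at 96.2, 102 and 57.3 CPM in microglia-like cells and 436 CPM in WT neutrophil-like cells. In *Ctnnb1* cKO it was below WT in rod-like cells at -1.85 (-2.21 to -1.52), in amacrine-like cells at -1.10 (-1.41 to -0.80) and in microglia-like cells at -0.75 (-0.97 to -0.52), where the median over all non-endothelial genes was -0.35. *Pid1* in *Tspan12* KO was close to WT in those classes, at 0.04 (-0.12 to 0.20), -0.02 (-0.13 to 0.09) and 0.09 (-0.16 to 0.34).

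Microglia-like cells were enriched with the ECs and serve as the nearest cells that the rule did not use. Of all genes with at least 50 UMIs there, 3.44% of the *Tspan12* KO ratios and 9.31% of the *Ctnnb1* cKO ratios were at least 2-fold above WT. In *Tspan12* KO 1 of the 8 genes was so, *Ramp3*, on 4 UMIs against 1. In *Ctnnb1* cKO 4 were so. *Aqp1* had no UMI in WT, where a count of 0 allows up to 1.11 CPM, and 77 UMIs in *Ctnnb1* cKO, at least 9.29-fold higher. *Acer2* stood at 1.11 and 7.80 CPM, *Ramp3* at 0.372 and 2.96 CPM and *Six3os1* at 6.32 and 15.7 CPM. These *Ctnnb1* cKO levels were at or near those of rod-like cells for *Aqp1* and below them for *Acer2*, *Ramp3* and *Six3os1*. In that library ECs made up 32.1% of the cells, against 5.99% in WT and 2.28% in *Tspan12* KO, and the part of RNA from other cells in these values was not tested.

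**Figure D5:**
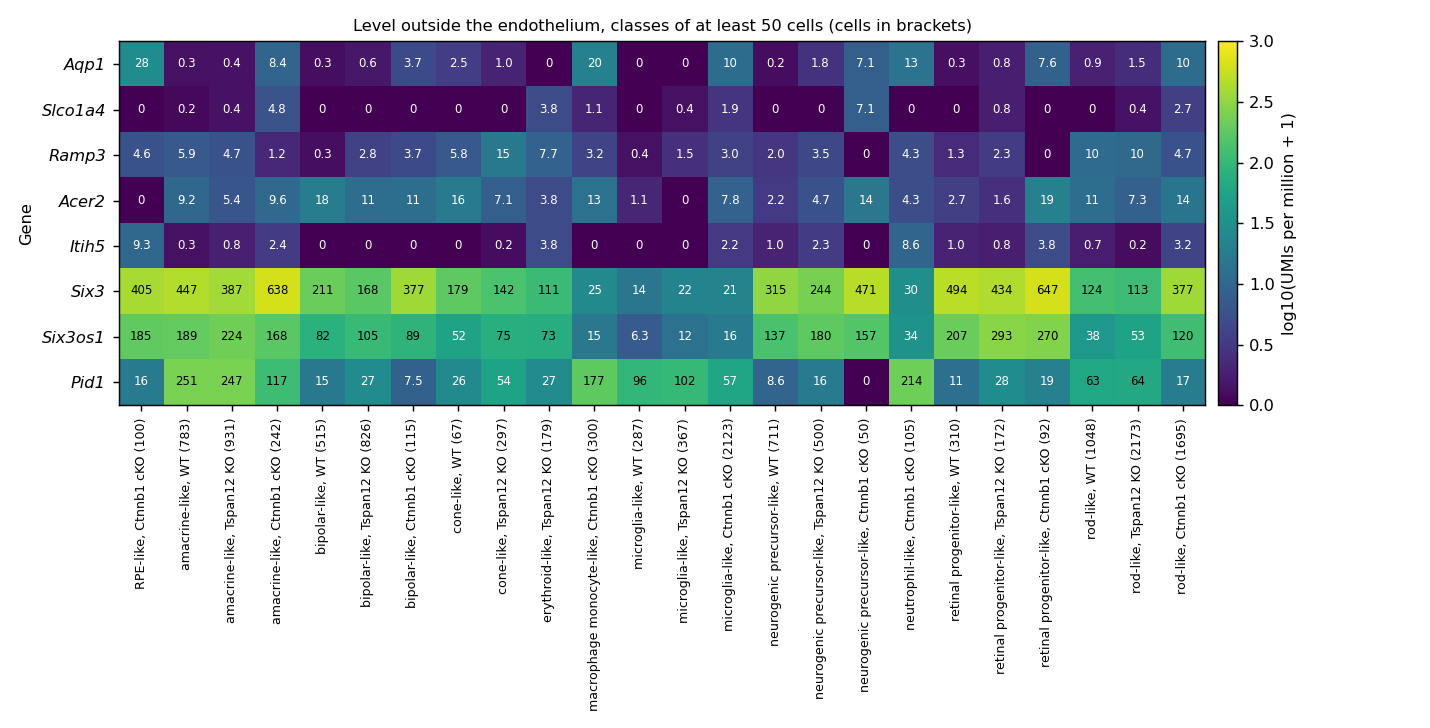
Level of each gene (rows) in the non-endothelial classes of each library with at least 50 cells (columns), coloured by log10 of CPM plus 1, with the CPM printed. *Six3* and *Six3os1* are high in all retinal neuron and progenitor classes and low in the microglia-like and other myeloid classes, and the highest *Aqp1* level plotted is 27.8, in the RPE-like cells of *Ctnnb1* cKO.

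The relatives of the 8 genes were then followed in ECs, from lists chosen with earlier results of these data known. Counts cover list genes with at least 50 endothelial UMIs, and called means at least 2-fold from WT. A gene with 3 UMIs or fewer in both WT and a knockout library was left out. Genes named here that were not called in both knockout libraries were chosen after their values were seen. Of 12 other transporters of organic anions and drugs, none was called above WT in either library and 1 was called below in both. This was *Slc22a8*, an organic anion transporter of the barrier, at 32.1, 4.07 and 4.89 CPM, opposite in direction to *Slco1a4*. The drug pump genes *Abcb1a* and *Abcg2* stayed within 2-fold, at log2 ratios of 0.13 and 0.66 and of 0.15 and 0.09. The 1 other aquaporin with enough UMIs, *Aqp11*, stood at 19.8, 23.3 and 24.1 CPM. Of 6 other genes of adrenomedullin and its receptors, *Adm*, the ligand, was below WT in *Tspan12* KO at -1.61 and stood at -0.89 in *Ctnnb1* cKO, and the related receptor *Gpr182* was above WT in *Ctnnb1* cKO at 1.07. The partners *Ramp2* and *Calcrl* stood at 0.05 and 0.05 and at 0.19 and -0.49. Of 20 other ceramide and sphingosine genes none was called in *Tspan12* KO and 1, *Acer3*, fell below WT in *Ctnnb1* cKO, at -1.26. Of 4 other inter-alpha-trypsin and hyaluronan genes none was called. *Lyve1*, of that list, was left out, with 2 UMIs in WT and 2 in *Tspan12* KO. It had 60 in *Ctnnb1* cKO, a log2 ratio of 5.23 (3.31 to 8.31) on those 2 WT UMIs.

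Among 10 other eye-field genes, which act with *Six3* in the early eye, none was called above WT. *Dach1*, a transcriptional regulator that WT capillary ECs expressed, was below WT in both libraries, at 447, 113 and 54.8 CPM. *Rax*, *Pax6*, *Otx2*, *Lhx2* and *Six6* had log2 ratios between 0.01 and 0.62 in *Tspan12* KO and between -0.90 and -0.12 in *Ctnnb1* cKO. *Six5*, at 0.63 and 0.97, and *Eya3*, at 0.22 and 0.32, stood above WT in both without being called, and *Tbx2* stood at -0.14 and -0.63. Of 12 other genes around *Pid1* and LRP1, none was called in *Tspan12* KO. In *Ctnnb1* cKO *Lrp1* was called above WT at 1.88 and 2 were called below. Of 17 beta-catenin targets, 4 were called above and 2 below WT in *Tspan12* KO, and 3 above and 3 below in *Ctnnb1* cKO. *Axin2*, a feedback inhibitor of the pathway, and *Sp5*, a transcription factor, were above in both, with *Axin2* at 13.2, 32.1 and 33.8 CPM and *Sp5* at 2.61, 11.7 and 9.16 CPM. *Mfsd2a*, a lipid transporter of the barrier, was below in both at 175, 84.5 and 79.9 CPM, as was *Lgr5* on 7 UMIs in each knockout library. The 18 interferon-stimulated genes differed between the libraries more than the 8 genes did. All 18 were above WT in *Ctnnb1* cKO, with a median log2 ratio of 3.23, and none was above and 2 were below WT in *Tspan12* KO, with a median of -0.06.

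The genes whose levels ran most like those of each member were taken by Pearson correlation of log2(CPM + 5), as a description over points that share 3 libraries. Over the 13 combinations of EC subcluster and library, *Six3* was most like *Six3os1* (r = 0.97) and *Aqp1* (0.95), and the next was *Adrb1* (0.93), a beta-adrenergic receptor. *Slco1a4* was most like *Endov* (0.95), *Pid1* like *Elovl7* (0.97), *Acer2* like *Sort1* (0.97) and *Itih5* like *Col18a1* (0.95), a collagen of vascular basement membranes. *Ramp3* was most like *Plvap* (0.93). Over the 27 combinations of class and library with at least 50 cells, *Six3* and *Six3os1* were again nearest to each other (0.93). There *Aqp1* was most like *Cavin2* (0.88), a gene of caveolae, *Ramp3* like the Notch ligand *Jag1* (0.84), *Slco1a4* like *Nr5a2* (0.91), *Acer2* like *Gask1b* (0.86) and *Itih5* like *Sp5* (0.93), followed by *Upp1* (0.92) and *Plvap* (0.92). *Pid1* had no gene above 0.81.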

How the data were processed

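Retinal cells of mice at postnatal day 6 were profiled as 3 libraries of 10x 3′ single-cell RNA-seq, 1 per genotype. The deposited values are UMI counts per gene and cell, which the authors made with Cell Ranger (version 8.0.1 in the file headers) and left unnormalised. The genome build is given as GRCm39 in the submitters' notes and as mm10 in the methods.

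Barcodes needed 250 genes and 500 UMIs, with a mitochondrial share of up to 15%. The highest Scrublet-scored cells, 0.8% per 1000 cells, were removed as doublets, since the automatic Scrublet threshold marked 0, 0 and 323 cells. Cells were clustered with scanpy 1.11.5 (2000 variable genes, 30 principal components, 20 neighbours, Leiden resolution 1) and named "X-like" from 20 marker lists. ECs were clustered again and named from 6 subtype lists, without the 8 genes. UMIs were summed per class and library, and ratios of CPM were taken between libraries. Intervals are exact (Poisson, binomial, Clopper-Pearson) at 95% and cover counting error only. A count of 0 was bounded at 3 UMIs. Genes needed 50 UMIs to be counted, and ratios with 3 UMIs or fewer on both sides were left out. Called means at least 2-fold from WT. With 1 library per genotype no test was run. The calculations were checked on simulated counts. TMM factors came from edgeR 4.0.16. Alternatives were other scalings, cell filters, clusterings and thinning depths. The 8 genes and the gene lists were chosen with earlier results of these data known. Named beside them were the targeted genes, *Plvap*, *Cldn5*, up to 4 genes of each list called in both knockout libraries, and the 3 genes most alike to each by Pearson r. *Apcdd1* was named after its values were seen.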

Additional observations from a re-analysis of the deposited data

Results flagged for a closer look

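For 4 of the 8 genes, single classes outside the endothelium lay below WT in a knockout library whose ECs lay above it, with the whole counting interval of the class below 0. Whether the effect differed between ECs and these classes was not tested, since each genotype had 1 library.

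The values are log2 ratios to WT. In *Ctnnb1* cKO, *Pid1* stood at -1.85 in rod-like, -1.10 in amacrine-like, -1.03 in neutrophil-like and -0.75 in microglia-like cells, against 1.38 in ECs. The neutrophil-like value rests on 23 WT cells, and the median ratio of all non-endothelial genes in *Ctnnb1* cKO was -0.35. *Ramp3* in *Ctnnb1* cKO stood at -1.11 in rod-like cells, against 2.47 in ECs. WT and *Ctnnb1* cKO took their rod-like and microglia-like cells mostly from different clusters, with 1015 of 1048 WT and 27 of 1695 *Ctnnb1* cKO rod-like cells in the main WT cluster, so these values compare different clusters of a class. In *Tspan12* KO, *Acer2* stood at -1.15 in cone-like, -0.78 in amacrine-like, -0.72 in bipolar-like and -0.60 in rod-like cells, against 1.99 in ECs. *Six3* in *Tspan12* KO was slightly below WT in 6 retinal classes, at -0.37 in neurogenic precursor-like, -0.33 in cone-like, -0.32 in bipolar-like, -0.21 in amacrine-like, -0.19 in retinal progenitor-like and -0.14 in rod-like cells, against 3.50 in ECs. The median ratio of all non-endothelial genes in that library was -0.10.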

How the results depend on the processing

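No paired analysis was possible because each genotype had 1 library. All 8 genes were at least 2-fold above WT in *Tspan12* KO ECs. That count fell to 5 when ECs were taken by a gate on markers, to 4 without the subclusters that hold 1 library, and to 4 without subcluster 10, where 4.08%, 1.55% and 2.19% of all genes passed. In *Ctnnb1* cKO the count of 8 became 7 with the gate (*Pid1* 0.53), 6 without the subclusters of 1 library (*Acer2* 0.82, *Pid1* 0.94) and 7 without subcluster 2 (*Pid1* 0.84), where 7.96%, 19.9% and 7.70% of all genes passed. Without the subclusters of 1 library only 34 of 2714 *Ctnnb1* cKO ECs remained. That count therefore rests on few UMIs and does not describe the endothelium of that library. In *Tspan12* KO without the subclusters of 1 library and without subcluster 10, *Slco1a4* turned to log2 ratios of -0.61 and -0.22, *Acer2* to -0.11 and -0.088 and *Pid1* to -0.10 and -0.10. These falls are fixed by the construction, since the cells that hold most *Tspan12* KO UMIs of these genes are removed. The cause of the higher level in those cells was not tested. The share of all genes 2-fold above WT moved from 2.59% to 4.36% in *Tspan12* KO and from 8.53% to 10.7% in *Ctnnb1* cKO when genes with at least 10 UMIs were counted. Both knockout shares of ECs had intervals above that of WT for 8 genes at 2000 UMIs, for 5 without thinning and for 5 at 1000 UMIs. At 1000 UMIs the shares themselves were above WT for all 8 genes. There the *Tspan12* KO intervals of *Slco1a4*, *Ramp3* and *Itih5* overlapped those of WT.

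Outside the endothelium, adding 5 CPM took the count from 2 to 0 in *Tspan12* KO and from 3 to 1 in *Ctnnb1* cKO. TMM scaling turned *Six3os1* to 0.084 and *Pid1* to 0.14 in *Ctnnb1* cKO, and thinning turned *Pid1* to 0.055. In microglia-like cells of *Tspan12* KO the count of 1 became 0 with doublets kept, with thinning or with 5 CPM added, and 2 as a mean over cells, and *Six3os1* turned to -0.10 with doublets kept. In *Ctnnb1* cKO the count of 4 became 2 with thinning and 2 with 5 CPM added. With thinning, *Slco1a4* and *Itih5* were each found in 0 of 240 WT and 7 of 1778 *Ctnnb1* cKO cells. Their value of -1.67 takes 3 UMIs in place of the WT count of 0, so it is a lower bound and not a fall below WT. The causes were not tested. Low depth in *Ctnnb1* cKO cells and few WT UMIs limit the scarce genes.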
